A study of Mus musculus with 41 samples.

Results

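The Bcl2 family survival genes described here are 10 genes, taken by their symbols from a table of 47480 gene symbols measured in 41 mouse mammary tumors. They are the anti-apoptotic genes Bcl2, Bcl2l1, Mcl1 and Bcl2l2, the BH3-only genes Bcl2l11, Bid, Bad, Bik and Bmf, and the pore-forming gene Bak1. All 10 were found, and all 10 passed the filter on low values in both comparisons below. Of the tumors, 28 lacked both Plk2 and p53 (Plk2-/-; p53-/-, labelled p53null and PLK2null, called Plk2-null below) and 13 lacked p53 only (p53-/-, labelled p53-null). Every tumor was of Balb/c origin and received no treatment, and every tumor, the controls included, lacked p53.

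Both groups are models with limits. Per the study's methods the Plk2-null tumors grew from null mammary epithelium grafted into wild-type Balb/c mice whose own fat pads had been cleared, and per the labels the tumors were grown in the mammary site of syngeneic hosts, so vessels, blood and stroma could come from the host. The labels do not say which tumors were sequenced as they first arose and which after a transfer. The labels do not say which tumors descend from the same first tumor, so the p-values measure the spread between these libraries, which may share an origin. For its drug treatment experiments the study picked the p53-/- models closest to each Plk2-null subtype by clustering expression. Of the libraries used here, p53null-2208L and T11 carry the names of such models, and the other p53-/- libraries do not. The study also placed some Plk2-null tumors in a claudin-low class, with low Cldn3 and Cldn7, by clustering these same libraries. Its text names the tumor of PLK2null-743 as claudin-low. PLK2null-732 and PLK2null-733 are not named in that text and were put in the class by the grouping used here. The name is the study's, and markers of other cell types in these tumors are given below. T11 is the claudin-low tumor among the p53-/- libraries. The title tag ROSEN stood on all 13 p53-/- samples and on no Plk2-null sample, so genotype and this sample series cannot be told apart.

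Proteins of the Bcl2 family decide whether the outer membrane of mitochondria is opened, the step that releases cytochrome c and starts the caspases of the intrinsic route to apoptosis. Anti-apoptotic members hold the pore-forming members Bax and Bak1 inactive, and BH3-only members, which answer to damage, loss of attachment or loss of growth factors, occupy the anti-apoptotic members or activate the pore formers. In the mammary gland this balance governs survival of the epithelium and its clearance after lactation, and p53 itself induces several BH3-only genes.

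Values are the authors' gene-level estimates, in which the upper quartile of a tumor's nonzero genes equals 1000, without a unit and not divided by gene length. The deposited steps between values imply 31910250 to 53244725 fragments in the Plk2-null libraries and 29409608 to 70868102 in the p53-/- libraries, and 3 fragments correspond to a value of 1.16 to 2.45. The lowest value of any member, 22.5 for Bik in PLK2null-1988, lay above that. Plk2 itself ranged from 36.6 to 553 in the Plk2-null tumors and from 186 to 8028 in the p53-/- tumors. The library labelled p53null-7435, at 186, lay inside the Plk2-null range, and the genotype fits of the members and of the pathway genes were also computed without it. The epithelial genes Epcam, Cldn3 and Cldn7 were low in all 4 claudin-low tumors, with Epcam at 9.6 to 87.4 in the 3 Plk2-null ones and 81.4 in T11, against 2935 or more in the 25 other Plk2-null tumors. Krt8, a keratin of luminal epithelium, was at 63.0 or less in the 3 claudin-low Plk2-null tumors but at 11057 in T11.

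The members are spread over the genome. On mm10, with GENCODE vM21 gene bounds, the anti-apoptotic genes are Bcl2 at chr1:106538178-106714274 (minus strand), Bcl2l1 at chr2:152780668-152831728 (minus), Mcl1 at chr3:95658788-95663176 (plus) and Bcl2l2 at chr14:54883377-54888234 (plus). The BH3-only genes are Bcl2l11 at chr2:128126038-128162547 (plus), Bid at chr6:120891930-120916853 (minus), Bad at chr19:6941861-6951899 (plus), Bik at chr15:83526862-83544634 (plus) and Bmf at chr2:118528757-118549687 (minus). Bak1 is at chr17:27019810-27029009 (minus). All are protein-coding, and values refer to whole genes.

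For the 3 members whose levels the comparisons below turn on and that have an entry in the RefSeq table, the 250 bases before the start site nearest to the annotated gene start are shown, because they differ in base composition and in GC boxes, the GGGCGG motif (CCGCCC on the other strand), which is in capitals. All are on build GRCm38.p6, written 5′ to 3′ along the strand of the gene, from chr3:95658471-95658720 on the plus strand for Mcl1, chr2:152831729-152831978 on the minus strand for Bcl2l1 and chr19:6941611-6941860 on the plus strand for Bad.
Mcl1: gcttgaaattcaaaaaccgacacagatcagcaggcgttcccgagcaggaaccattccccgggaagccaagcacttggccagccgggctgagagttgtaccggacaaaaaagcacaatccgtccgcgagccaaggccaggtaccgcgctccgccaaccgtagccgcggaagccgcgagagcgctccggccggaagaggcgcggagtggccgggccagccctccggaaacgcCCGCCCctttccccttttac
Bcl2l1: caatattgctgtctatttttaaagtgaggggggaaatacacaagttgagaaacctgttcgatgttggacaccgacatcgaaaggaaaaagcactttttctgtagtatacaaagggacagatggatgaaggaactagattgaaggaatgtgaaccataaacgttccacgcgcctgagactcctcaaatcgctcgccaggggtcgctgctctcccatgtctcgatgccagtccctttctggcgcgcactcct
Bad: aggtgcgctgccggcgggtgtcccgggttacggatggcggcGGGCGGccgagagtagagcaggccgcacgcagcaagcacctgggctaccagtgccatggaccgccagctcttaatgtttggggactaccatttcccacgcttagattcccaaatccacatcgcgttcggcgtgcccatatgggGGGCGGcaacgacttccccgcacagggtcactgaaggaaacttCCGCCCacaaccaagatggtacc
The Bad window held 3 GC boxes, the Mcl1 window 1, and the Bcl2l1 window 0. Their G and C content was 62.8% for Bad, 64.4% for Mcl1 and 47.6% for Bcl2l1, against a median of 52.4% over all 32851 windows of 250 bases, of which 32.7% held the motif. Of the 10 members, 9 matched the table, all but Bik. The Bcl2 window was the richest of them, at 74.8% G and C with 7 GC boxes, and the windows of Bmf and Bak1 held 0. A motif match describes these letters only, and no promoter activity was measured.

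**Figure D1:**
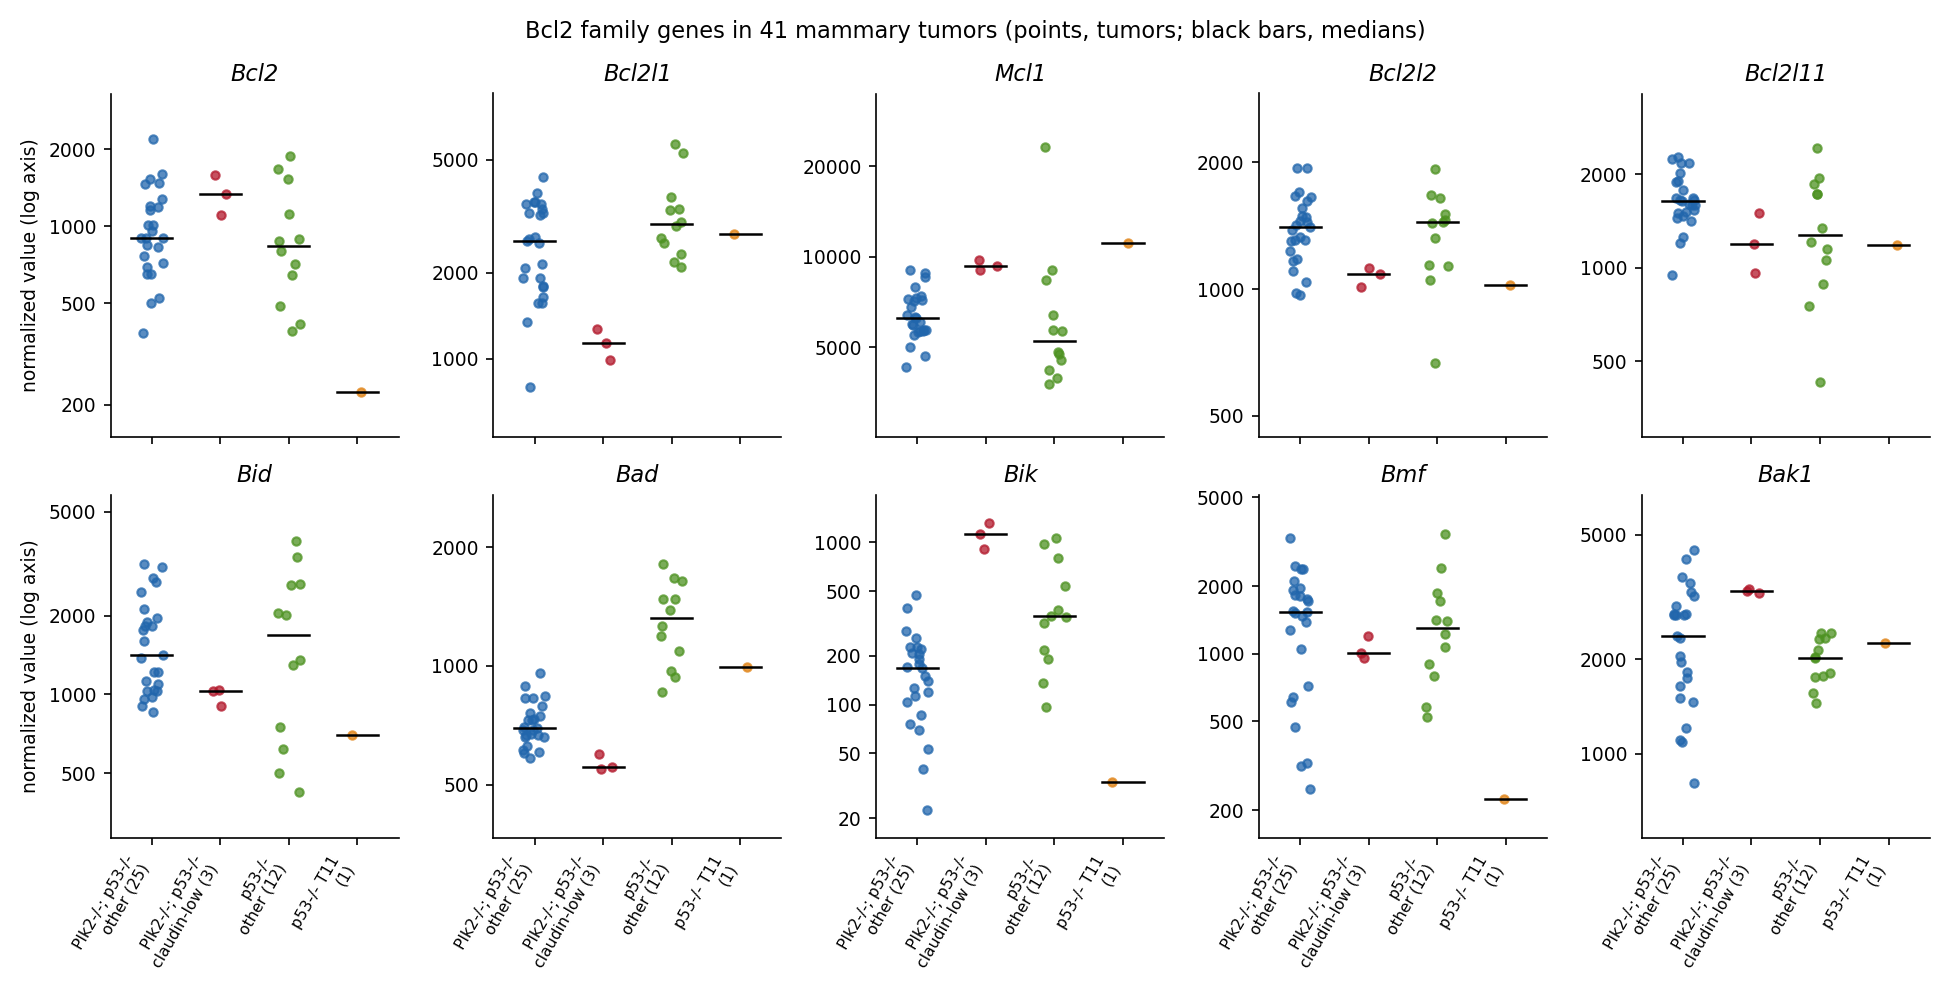
Normalized value of each of the 10 members (log axis) in every tumor, by genotype and claudin-low class. Points are tumors and black bars are medians. Bad lay lower in nearly all Plk2-null tumors than in p53-/- tumors, Bik stood at 911 to 1307 in the 3 claudin-low Plk2-null tumors and at 33.3 in T11, and 1 p53-/- tumor had Mcl1 at 23238.

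Mcl1 was the most abundant member per kilobase of transcript. Divided by the length of the longest annotated transcript, its level had a median of 1837 per kilobase over the 41 tumors (1107 to 6799), and it ranked first among the 10 in 37 tumors. Bcl2l1, which encodes Bcl-xL, followed with a median of 1026 per kilobase, then Bak1 with 976, Bid with 563, Bad with 486, Bcl2l2 with 362, Bcl2l11 with 315, Bmf with 301, Bik with 153 and Bcl2 with 125. The ranges of all neighbours in this order overlapped. Bad exceeded Bcl2l2 per kilobase in 38 of 41 tumors, whereas Bmf exceeded Bik in 27, Bcl2l11 exceeded Bmf in 23 and Bik exceeded Bcl2 in 22. With the union of all exons as the length, Mcl1 was first in 41 tumors, and by median Bak1 moved ahead of Bcl2l1, Bcl2l2 (309 per kilobase) ahead of Bad (291) and Bmf (266) ahead of Bcl2l11 (197).

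Bcl2 was thus the lowest member per kilobase by median, and Mcl1 had the largest share of the anti-apoptotic group by median. Of the summed level per kilobase of the 4 anti-apoptotic members, Mcl1 took a median of 57.3% in Plk2-null tumors (41.8% to 76.0%) and 44.9% in p53-/- tumors (33.0% to 82.6%).

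The members differed widely in how much they varied. Bik had the largest spread, with an SD of 1.38 on the log2 scale over 41 tumors and a 58.2-fold range within the Plk2-null tumors. Bmf followed with an SD of 0.98. Bcl2l2, which encodes Bcl-w, had the smallest SD, 0.32, lower than that of all but 3.5% of the genes tested, whose median SD was 0.76. Within the 25 other Plk2-null tumors, Bad was steadier still, with an SD of 0.18, lower than that of all but 0.4% of genes.

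The first comparison asked how the loss of Plk2 on a p53-null background relates to these genes, with 28 Plk2-null against 13 p53-/- tumors. Bad, which encodes a BH3-only protein held inactive by growth factor signalling, fell, and no other member passed the test. The 28 Plk2-null tumors had Bad at 548 to 958 with a median of 688, and the 13 p53-/- tumors at 861 to 1810 with a median of 1261. The groups met only between 861 and 958, where PLK2null-1973 and PLK2null-7763 were the high Plk2-null tumors and p53null-10155 and p53null-7435 the low p53-/- tumors. The means were 702 ± 101 (SD, n = 28) and 1290 ± 313 (SD, n = 13), a log2 fold change of -0.85 with an SE of 0.09 (limma, adjusted p = 1.41e-09), or 1.80-fold lower. Over all genes 6802 of 17208 were called, or 39.5%, with 24.3% higher and 15.3% lower, so 1 of 10 members called is a smaller share than the background. No member separated the genotypes without overlap, as 1.35% of all genes did. The median log2 fold change was 0.09 over the members and 0.10 over all genes.

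Transcript length moved with the genotype difference across the whole table, and Bad is a short gene. Among genes with a longest transcript of up to 1000 bases the median log2 fold change was -0.40 and 40.5% were called lower, while above 5000 bases the median was 0.45 and 3.33% were called lower. The longest transcript of Bad has 1533 bases, in the class of 1000 to 2000 bases, whose median was -0.21 and in which 27.4% of 3013 genes were called lower. With the trend over length and GC content removed from each tumor, an alternative chosen after seeing the data, Bad differed by -0.62 (limma, adjusted p = 5.97e-07), and the calls over all genes split 45% higher, against 61.4% with the values as deposited. TMM and quantile scaling, which shifted the median of all genes from 0.10 to -0.03 and to -0.0049, gave 47.5% and 50.7% higher. Without the library labelled p53null-7435, Bad differed by -0.89 (limma, adjusted p = 7.73e-10).

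**Figure D2:**
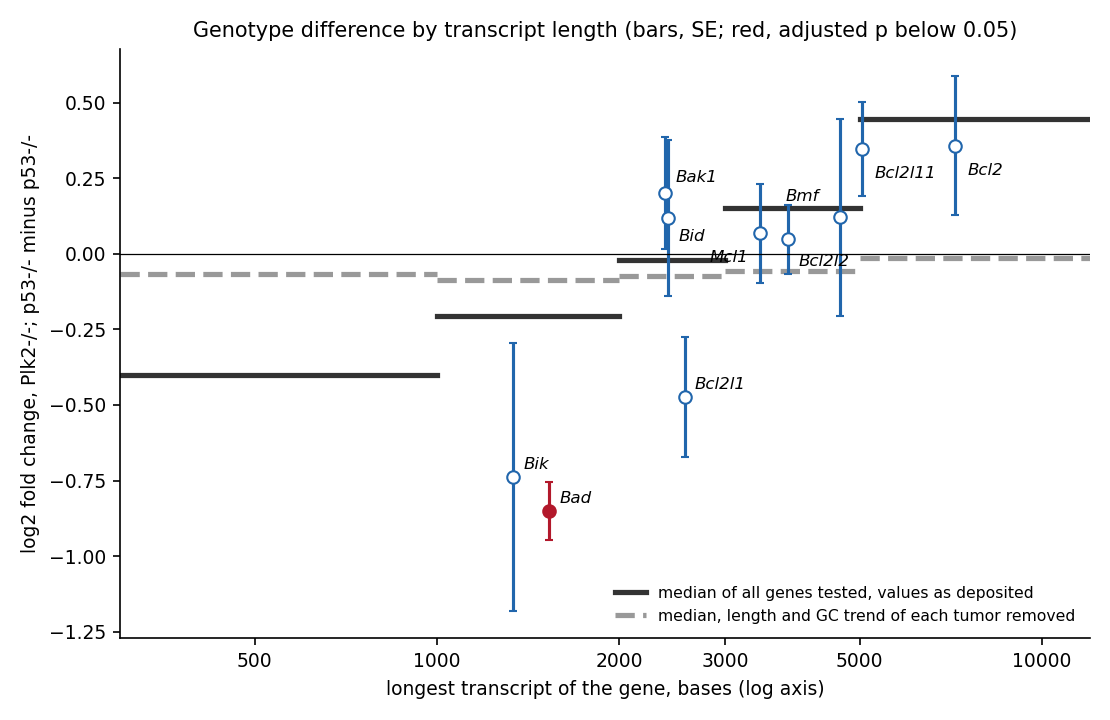
Log2 fold change between genotypes (vertical axis, Plk2-null minus p53-/-) against the length of the longest transcript (log axis) for the 10 members, with SE bars, and the median of all genes tested in 5 length classes before (solid) and after (dashed) removal of the length and GC trend. The medians rise from -0.40 to 0.45 with length, and Bad, in red at -0.85, lies below the median of its class.

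Many genes near Bad on chromosome 19 were called lower, as were many near 2 members that were not called. Of the 55 other genes tested within 1 Mb of Bad, 22 were called lower and 3 higher, that is 40.0% lower against 15.3% of all genes, with a median log2 fold change of -0.33. Within 1 Mb of Bcl2l2 the share lower was 38.1% (median -0.31) and within 1 Mb of Bak1 36.6% (median -0.32). Over the 41 tumors Bad followed the median of these neighbours with r = 0.75, and in p53null-2153L, where Bad was highest at 1810, that median stood 1.01 above its 41-tumor level on the log2 scale. Gpr137, which overlaps Bad on the opposite strand, differed by 0.05 (limma, adjusted p = 0.80), with means of 650 ± 167 (SD, n = 28) and 642 ± 219 (SD, n = 13). Whether counting used the strand is not given in the sources used here.

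Bcl2l1 lay just outside the threshold. It ranged from 798 to 4341 (median 2353) in Plk2-null tumors and from 2100 to 5684 (median 2930) in p53-/- tumors, where p53null-5329 and p53null-2224L were the high ones. The groups overlapped over most of their ranges. The log2 fold change was -0.47 with an SE of 0.20 (limma, adjusted p = 0.0539). It passed the threshold with TMM scaling at -0.60 (limma, adjusted p = 0.0207), with quantile scaling at -0.52 (limma, adjusted p = 0.0408) and with an intensity trend in limma (adjusted p = 0.0495). It did not pass in the other 7 of 10 alternatives, among them those without the 4 claudin-low tumors at -0.37 (limma, adjusted p = 0.12), with the length and GC trend removed at -0.43 (limma, adjusted p = 0.0977) and with the 7 Plk2-null tumors PLK2null-7747 to PLK2null-7764 alone at -0.37 (limma, adjusted p = 0.33).

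Among the other anti-apoptotic genes, Bcl2 had a median of 980 (382 to 2197) in Plk2-null and 796 (225 to 1885) in p53-/- tumors, a log2 fold change of 0.36 with an SE of 0.23 (limma, adjusted p = 0.22). Mcl1, a short-lived protein that many tumors depend on, had medians of 6357 (4296 to 9755) and 5665 (3784 to 23238), a log2 fold change of 0.07 with an SE of 0.16 (limma, adjusted p = 0.77). Bcl2l2 had medians of 1356 (968 to 1944) and 1439 (668 to 1924), a log2 fold change of 0.05 with an SE of 0.11 (limma, adjusted p = 0.77). All 3 overlapped between the genotypes, and the signs of all 3 turned negative with the length and GC trend removed, to -0.16 for Bcl2, -0.11 for Mcl1 and -0.06 for Bcl2l2.

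The Mcl1 level of 23238 in p53null-2396R stood apart from every other tumor, the next being T11 with 11111. Mcl1 in that tumor was 1.89 above its 41-tumor median on the log2 scale. Of the 87 other genes tested within 1 Mb of Mcl1 on chromosome 3, 73 were above their own medians in p53null-2396R and 50 by more than 1 on the log2 scale, with a window median of 1.24, while the median over all genes in that tumor was -0.03. Of the 5 genes nearest to Mcl1, Adamtsl4 was 0.90, E330034L11Rik 0.50, Ensa 1.66, Rps10-ps1 0.89 and Golph3l 1.63 above its own median. The next highest window median of any tumor was 0.51, in p53null-2208L. What set this region apart in that tumor was not tested. Without p53null-2396R the Mcl1 log2 fold change between genotypes was 0.22 (limma, adjusted p = 0.19).

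**Figure D3:**
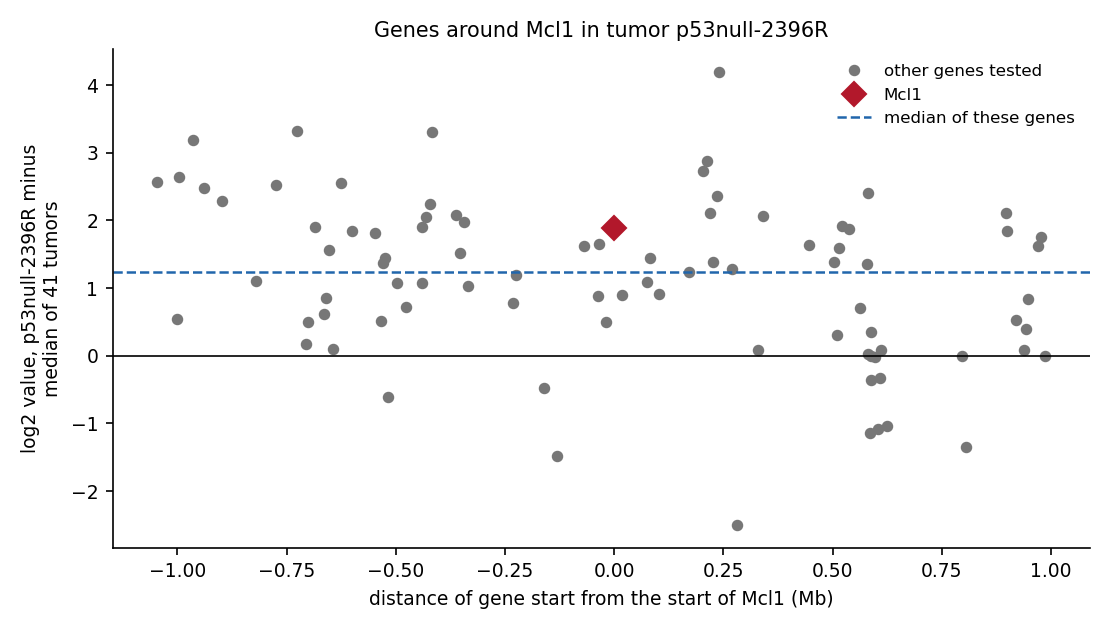
Log2 value in p53null-2396R minus the median of 41 tumors (vertical axis) for 87 genes within 1 Mb of Mcl1, by the distance of their start from that of Mcl1. Each point is a gene, the red diamond is Mcl1 at 1.89, and the dashed line is the median of the others at 1.24, well above 0.

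The BH3-only genes other than Bad were not called. Bcl2l11, which encodes Bim, had medians of 1595 (951 to 2262) in Plk2-null and 1211 (429 to 2420) in p53-/- tumors, a log2 fold change of 0.35 with an SE of 0.16 (limma, adjusted p = 0.0714), which became 0.0066 with the length and GC trend removed. Its longest transcript has 5036 bases, at the edge between the length classes of 3000 to 5000 bases (median 0.15) and above 5000 bases (median 0.45). Bid, which is cleaved by caspase-8 and so joins the death receptor route to mitochondria, differed by 0.12 with an SE of 0.26 (limma, adjusted p = 0.75).

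Bid varied widely within each genotype. In Plk2-null tumors it ranged from 857 to 3152 with a median of 1304, and PLK2null-7750, PLK2null-1984, PLK2null-1985 and PLK2null-1986 held the 4 highest values, 2689 to 3152. In p53-/- tumors it ranged from 423 in p53null-10152 to 3862 in p53null-2225L. Bmf, a BH3-only gene linked to loss of attachment, had medians of 1494 (248 to 3282) and 1220 (225 to 3407), a log2 fold change of 0.12 with an SE of 0.33 (limma, adjusted p = 0.80). Its 4 lowest Plk2-null values, 248 to 469, belonged to PLK2null-1963, PLK2null-1964, PLK2null-1965 and PLK2null-7747. The 4 tumors high in Bid were also among the 5 lowest Plk2-null tumors in Bcl2, at 382 to 652, an observation made after the values were seen. Of the 4 tumors high in Bid 3 carry neighbouring numbers, as do 3 of the 4 low in Bmf, and the labels do not say whether such tumors share a line.

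Bik, whose protein acts from the endoplasmic reticulum, spread the most. It ranged from 22.5 to 1307 (median 175) in Plk2-null tumors and from 33.3 to 1071 (median 348) in p53-/- tumors, and the log2 fold change of -0.74 with an SE of 0.44 was not called (limma, adjusted p = 0.19). Without the 4 claudin-low tumors, which held the 3 highest Plk2-null values and the lowest p53-/- value, the difference was -1.31 (limma, adjusted p = 0.0028). Bak1 ranged from 804 to 4474 (median 2774) in Plk2-null tumors and from 1449 to 2436 (median 2031) in p53-/- tumors, with a log2 fold change of 0.20 and an SE of 0.19 (limma, adjusted p = 0.41). All p53-/- values of Bak1 lay inside the Plk2-null range. Ggnbp1, which overlaps Bak1 on the opposite strand, had means of 274 and 147 and differed by 0.88 (limma, adjusted p = 2.04e-05).

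Of 35 further genes of the apoptosis pathway, 33 were tested, and 7 were higher and 2 lower in Plk2-null tumors, or 27.3% called, a smaller share than the 39.5% of all genes. The higher ones included Cflar, which encodes the caspase-8 inhibitor c-FLIP (log2 fold change 0.83, SE 0.14, limma adjusted p = 6.2e-06), Xiap, a direct caspase inhibitor (0.76, SE 0.15, limma adjusted p = 7.1e-05), the death ligand gene Tnfsf10 (1.07, SE 0.42, limma adjusted p = 0.0394) and Bcl2a1b, an anti-apoptotic relative whose reads are hard to separate from its near-identical copies (0.81, SE 0.29, limma adjusted p = 0.0232). The copies Bcl2a1a (0.46, limma adjusted p = 0.30) and Bcl2a1d (0.12, limma adjusted p = 0.77), named here after their values were seen, were not called. The genes called lower were the pore former Bax (-0.34, SE 0.11, limma adjusted p = 0.0097) and Bcl2l15 (-1.65, SE 0.49, limma adjusted p = 0.0064). The median log2 fold change of the 33 was 0.12, against 0.10 over all genes.

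Most of these pathway calls were lost when the trends over transcript length and GC content were removed together. With both removed, 3 of the 9 calls were kept, those of Bcl2a1b, Bcl2l15 and Cflar, and 2 turned in sign. Xiap, with a transcript of 6834 bases, was then at 0.02 (limma, adjusted p = 0.92), and Bax, with 1100 bases, at 0.06 (limma, adjusted p = 0.73). With TMM or quantile scaling 6 of the 9 were kept, and with the 7 Plk2-null tumors PLK2null-7747 to PLK2null-7764 against the 13 p53-/- tumors 1 was kept, Xiap.

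Few marker genes of cell types and of proliferation were called between the genotypes, 7 of the 51 tested, or 13.7%, against 39.5% of all genes. The lack of a call does not show equal levels. The median log2 fold change of the epithelial markers was -0.92, and Krt18 differed by -2.18 with an SE of 0.92 (limma, adjusted p = 0.0552). In Plk2-null tumors 2 of 5 neutrophil markers were higher (Csf3r by 1.33 and Cxcr2 by 1.97), with summed levels of 236 to 3011 against 123 to 3077. Of the red blood cell markers 2 of 5 were lower, with summed levels of 491 to 351792 against 3139 to 45099. Of the macrophage, proliferation and adipocyte markers 1 each was called (Cd68 by 0.96, Mki67 by 0.95, Cfd by -2.24), and 0 of the 6 epithelial, 6 endothelial, 5 B cell, 5 T cell and 5 fibroblast markers. No defining marker was at 0 in every tumor of a genotype. In bulk tumors fewer cells of a type and less RNA per cell cannot be told apart, and the part of these cells in the member differences was not tested.

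The second comparison set the 3 claudin-low Plk2-null tumors against the 25 other Plk2-null tumors, within 1 genotype. Because the class was assigned by clustering these same libraries, the test is not independent of expression. Of the 10 members 4 were called, Bik and Mcl1 higher and Bcl2l1 and Bad lower, against 37.3% of all 17153 genes tested (20.2% higher and 17.1% lower). The median log2 fold change was -0.27 over the members and 0.02 over all genes. The groups did not overlap for Bik and Mcl1, as for 20% of all genes.

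Bik showed the largest difference of the 10. The 3 claudin-low tumors had Bik at 1307 (PLK2null-732), 911 (PLK2null-733) and 1131 (PLK2null-743), and the 25 others at 22.5 to 474 with a median of 168. The 3 stood above all 25, and the highest of the others was PLK2null-7763. The means were 1116 ± 198 (SD, n = 3) and 172 ± 105 (SD, n = 25), a log2 fold change of 2.96 with an SE of 0.57 (limma, adjusted p = 0.000147), or 7.78-fold higher. T11 went the other way. At 33.3 it was the lowest of the 13 p53-/- tumors, whose other 12 lay between 96.3 and 1071. With T11 counted as claudin-low and genotype as a term the difference was 1.34 (limma, adjusted p = 0.13).

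Mcl1 stood at 9755, 9039 and 9310 in PLK2null-732, PLK2null-733 and PLK2null-743, and at 4296 to 9039 with a median of 6278 in the 25 others. The groups touched, since PLK2null-733 (9039.5) and PLK2null-1989 (9039.3) differed by 0.2. The log2 fold change was 0.55 with an SE of 0.17 (limma, adjusted p = 0.0127), or 1.47-fold higher, and T11 had 11111, above the other p53-/- tumors except p53null-2396R. The call was lost without PLK2null-732 (limma, adjusted p = 0.0694) and without PLK2null-743 (limma, adjusted p = 0.0519), with TMM scaling at 0.46 (limma, adjusted p = 0.0879), with quantile scaling at 0.34 (limma, adjusted p = 0.12) and with the length and GC trend removed at 0.46 (limma, adjusted p = 0.0728).

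Bcl2l1 stood at 1271, 992 and 1136 in the 3 tumors and at 798 to 4341 with a median of 2587 in the others. Only PLK2null-1963, at 798, lay below all 3 claudin-low tumors. The means were 1133 ± 139 (SD, n = 3) and 2573 ± 917 (SD, n = 25), a log2 fold change of -1.09 with an SE of 0.34 (limma, adjusted p = 0.0125), or 2.13-fold lower. It was lost without PLK2null-743 (limma, adjusted p = 0.0515) and without PLK2null-733 (limma, adjusted p = 0.0777). T11, at 2730, was inside the range of the other p53-/- tumors.

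Bad stood at 548, 554 and 597 in the 3 tumors against 584 to 958 in the others, so only PLK2null-743 overlapped them. The log2 fold change was -0.33 with an SE of 0.13 (limma, adjusted p = 0.0448), or 1.26-fold lower. It was lost on leaving out any of the 3, with adjusted p in limma of 0.16 without PLK2null-732, 0.0858 without PLK2null-743 and 0.15 without PLK2null-733. It was also lost against the 7 tumors PLK2null-7747 to PLK2null-7764 alone (limma, adjusted p = 0.15) and with T11 and a genotype term (limma, adjusted p = 0.0585). Of the 54 other genes tested within 1 Mb of Bad, 19 were called lower and 7 higher in this comparison. That is 35.2% lower against 17.1% of all genes, with a median log2 fold change of -0.31, near that of Bad itself.

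The remaining 6 members were not called. Bak1 was very even in the claudin-low tumors, at 3363, 3261 and 3304, inside the range of 804 to 4474 of the others (0.59, SE 0.38, limma adjusted p = 0.23). Bcl2 was at 1333, 1581 and 1102 against a median of 898 (0.50, SE 0.34, limma adjusted p = 0.26), while T11 at 225 was the lowest of all 41 tumors. Bcl2l2 at 1012 to 1121 differed by -0.36 (SE 0.17, limma adjusted p = 0.10), and passed with TMM scaling (limma, adjusted p = 0.0388) and with the length and GC trend removed (limma, adjusted p = 0.0211). Bcl2l11 at 964 to 1500 differed by -0.45 (SE 0.19, limma adjusted p = 0.0639), and passed with quantile scaling (limma, adjusted p = 0.0499), without PLK2null-743 (limma, adjusted p = 0.0458) and without PLK2null-7763 (limma, adjusted p = 0.0254). Bid differed by -0.63 (SE 0.34, limma adjusted p = 0.16) and Bmf by -0.21 (SE 0.59, limma adjusted p = 0.81).

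**Figure D4:**
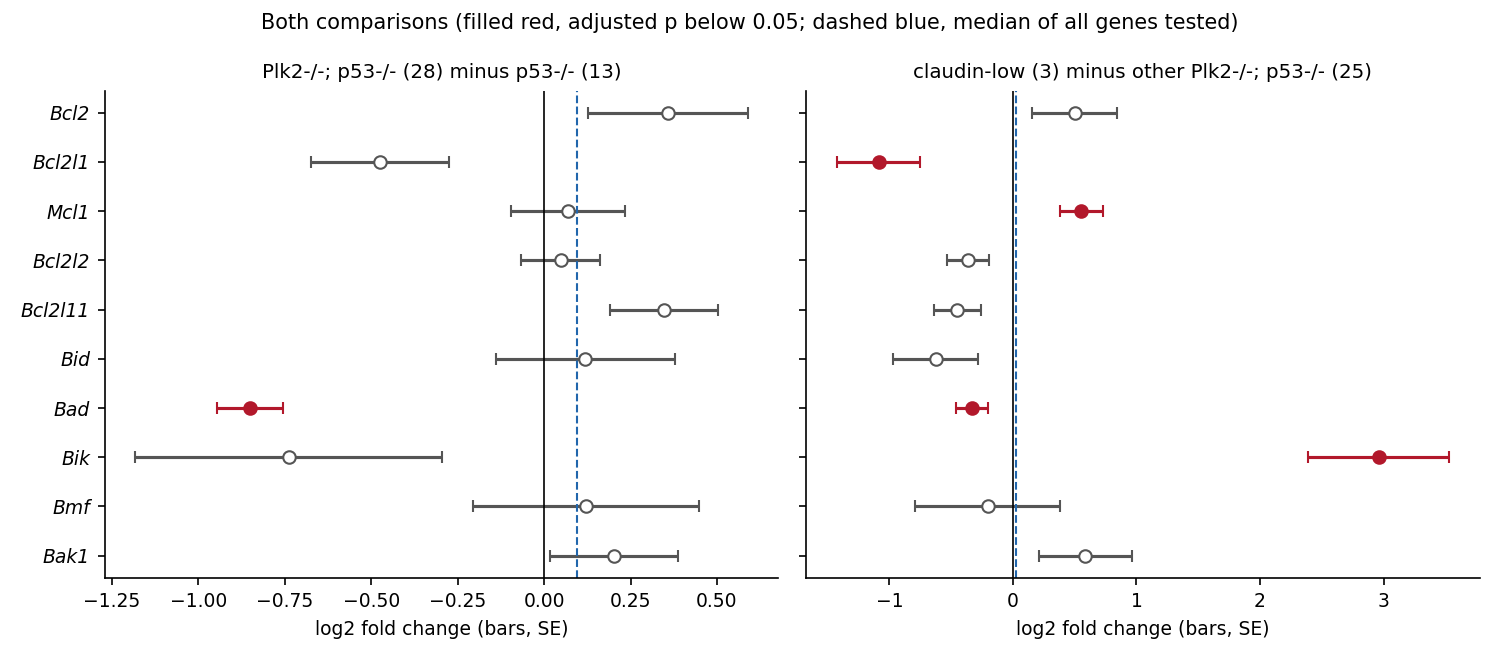
Log2 fold change with SE for the 10 members in the genotype comparison (left) and in the claudin-low comparison (right). Filled red points passed an adjusted p of 0.05 and the dashed line is the median of all genes tested. Bad is the single red point on the left at -0.85, and on the right Bik at 2.96 lies far from the other 9.

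The shares of Mcl1 and Bcl2l1 in the anti-apoptotic group, which are computed from the levels above and are no further test, differed in the claudin-low tumors. Mcl1 took 74.6% to 76.0% of the summed anti-apoptotic level per kilobase in the 3 tumors, and 41.8% to 69.9% in the 25 others. Bcl2l1 took 10.9% to 12.9% and 13.2% to 42.2%. Neither share overlapped between the groups, where the levels of 20% of all genes did not overlap. In T11 Mcl1 took 70.5% and Bcl2l1 23%.

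Of the 33 other pathway genes tested, 12 were higher and 2 lower in the claudin-low tumors, or 42.4% called against 37.3% of all genes, with a median log2 fold change of 0.23 against 0.02. The groups did not overlap for 11 of the 33, or 33.3%, against 20% of all genes. Among the higher were Bok, a pore-forming relative (3.85, SE 0.78, limma adjusted p = 0.000263), and the inhibitor of apoptosis genes Birc3 (2.47, SE 0.28, limma adjusted p = 7.5e-08) and Birc2 (1.87, SE 0.30, limma adjusted p = 1.1e-05). The death ligand gene Tnfsf10 (1.88, SE 0.54, limma adjusted p = 0.0068) and Apaf1, the scaffold of the apoptosome (1.67, SE 0.32, limma adjusted p = 0.000117), were also among them. Bcl2l14 (-5.51, SE 0.62, limma adjusted p = 5.0e-08) and Casp6 (-0.73, SE 0.25, limma adjusted p = 0.0226) were lower. All 14 calls were kept with TMM scaling, quantile scaling and the length and GC trend removed. Casp6 was lost on leaving out any of the 3 tumors and Bbc3, named after its values were seen, without PLK2null-743, and 9 of the 14 were kept with T11 and a genotype term.

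Bok had means of 4646 ± 450 (SD, n = 3) and 501 ± 508 (SD, n = 25), without overlap. Bcl2l14, whose product is a divergent family member, had means of 4.04 ± 1.44 (SD, n = 3) and 287 ± 226 (SD, n = 25), also without overlap. The pore former Bax was higher in the claudin-low tumors, 1864 ± 74.4 (SD, n = 3) against 1161 ± 171 (SD, n = 25), without overlap. Its log2 fold change was 0.70 with an SE of 0.14 (limma, adjusted p = 0.000249). Between genotypes Bax was called lower in Plk2-null tumors with the values as deposited, but not with the length and GC trend removed. Bax was named here after its values were seen.

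The cell make-up differed between these groups at the same time. All 6 epithelial markers were lower in the claudin-low tumors, with summed levels of 45.7 to 291 against 13539 to 119162. All 6 endothelial markers were higher, with summed levels of 165585 to 186496 against 2572 to 78025, the 78025 being that of PLK2null-7763, while T11 had 6876. Among them was Cdh5, a cell-junction gene of endothelium, with means of 44810 and 2236, so not all junction genes were low. T11, under the same class name, had summed levels of 33742 for the epithelial and 156144 for the fibroblast markers. The 5 B cell, 5 T cell and 5 red blood cell markers were all called higher, with summed red blood cell levels of 94951 to 351792 against 491 to 21528. Summed B cell levels were 774 to 1028 against 8.63 to 5427, so at least 1 other tumor lay above all 3. Summed T cell levels were 1543 to 2756 against 73.0 to 1528. The groups separated without overlap for 0 of 5 B cell and 1 of 5 T cell markers. Of the fibroblast markers 3 of 5 were lower, with summed levels of 6211 to 30324 against 10244 to 199136. Of 4 adipocyte markers tested 1 was called, Fabp4, higher by 7.05. Plin1 at 2.27, Adipoq at -0.17 and Cfd at -0.25 were not called. Of 5 proliferation markers 1 was lower, and 0 of 5 macrophage and 0 of 5 neutrophil markers were called. No marker was at 0 in all 3 tumors. The part of these cells in the 4 member differences was not tested. Within the 25 other tumors, which leave out the claudin-low ones, the correlation with the mean log2 endothelial marker level was 0.30 for Bik and -0.03 for Mcl1. It was -0.07 for Bcl2l1 and 0.40 for Bad. Over all 41 tumors this correlation was 0.50 for Bik, 0.18 for Mcl1, -0.43 for Bcl2l1 and -0.25 for Bad. Leaving out PLK2null-7763 kept the 4 calls and added that of Bcl2l11.

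Few members followed each other over all tumors. Among the 45 pairs, Pearson's r over the 41 tumors ran from -0.34 to 0.48, and 0 pairs reached 0.5 in size. Within the 25 other Plk2-null tumors r ran from -0.64 to 0.72, and 11 pairs reached 0.5, 8 of them positive. Bmf and Bak1 had the highest r at 0.72 (0.48 over 41 tumors), and Bmf also rose and fell with Bcl2l1 (0.66), Mcl1 (0.61) and Bcl2l11 (0.60). Bid went against Bcl2l1 (-0.64) and Mcl1 (-0.51), and with Bik (0.57). These are descriptions over libraries that share depth scaling and may share lines.

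**Figure D5:**
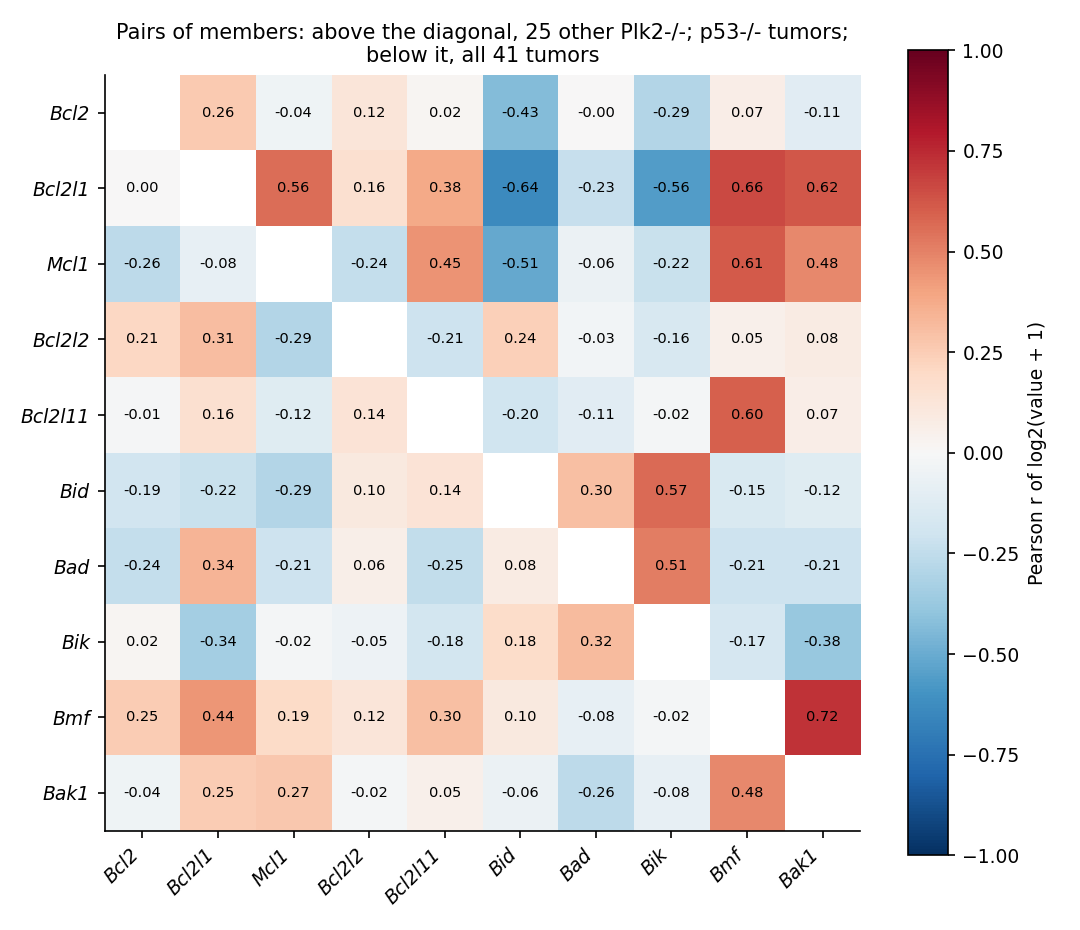
Pearson's r of log2(value + 1) for each pair of members, within the 25 other Plk2-null tumors above the diagonal and over all 41 tumors below it. The strongest colours lie above the diagonal, with Bmf and Bak1 at 0.72 and Bcl2l1 and Bid at -0.64, and no pair below it reaches 0.5.

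Marker genes of other cell types followed some members in the same 25 tumors. The mean log2 neutrophil marker level had an r of 0.79 with Bcl2l1 and 0.66 with Bmf. The macrophage level had an r of 0.76 with Bmf, 0.68 with Mcl1 and 0.67 with Bak1, and the epithelial level 0.76 with Bmf and 0.73 with Bcl2l11. Over all 41 tumors the r with the neutrophil level was 0.28 for Bcl2l1 and 0.49 for Bmf. With the macrophage level it was 0.62 for Bmf, 0.12 for Mcl1 and 0.50 for Bak1, and with the epithelial level 0.32 for Bmf and 0.24 for Bcl2l11.

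The genes whose pattern over the 41 tumors was most like that of each member were mostly not family members. Bad was closest to Dgcr6 (r = 0.90), Gm6204 (0.88) and Manbal (0.88), and within the 25 other Plk2-null tumors these were at 0.70, 0.54 and 0.72. Bid was closest to Ercc2 (0.83), a helicase of DNA repair and transcription, and to the condensin genes Ncaph (0.81) and Ncapd2 (0.79). Bmf was closest to Mgam (0.84), Sulf2 (0.81) and Ctnnd1 (0.81), and Bik to Slc46a3 (0.82), Chp2 (0.77) and Ces2e (0.75). Among the anti-apoptotic genes, Bcl2 was closest to the Notch ligand gene Dll1 (0.74), Rnf169 (0.74) and Zbtb7c (0.73), and Bcl2l1 to Gm4675, 2200002D01Rik and Sox21 (0.81 each). Bcl2l11 was closest to Zfhx3 (0.72), Bcar3 (0.70) and Card19 (0.70).

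For some members the closest genes lay on the same chromosome. All 3 closest to Bak1 were on chromosome 17, Atp6v0c (0.83) and Rnps1 (0.77) at 2.86 and 2.61 Mb and Gm5812 (0.76) at 20.9 Mb. All 3 closest to Bcl2l2 were on chromosome 14, Slmap (0.66), Prkcd (0.61) and Tmem260 (0.61), at 28.47, 24.29 and 6.44 Mb. Of the 3 closest to Mcl1, Otud7b (0.75) and Gdap2 (0.74) were on chromosome 3 at 0.45 and 4.5 Mb, and 4921524J17Rik (0.73) was on chromosome 8. Of the 50 genes most like Bcl2l2, 23 lay on its chromosome, or 46.0%, where 3.4% of the genes tested lie. The same share was 22% for Bak1 (4.6% of genes), 18% for Bad (3.1%) and 16% for Mcl1 (5.1%), and 8.0% to 18% for the other 6, on chromosomes that hold 3.8% to 7.7% of genes. Over the 41 tumors the median of the tested genes within 1 Mb followed Bcl2l2 with r = 0.50 and Mcl1 with r = 0.49. For Mcl1 that includes p53null-2396R, the highest tumor in both. The r was lower for Bak1 (0.24), Bik (0.27), Bid (0.25) and Bcl2 (0.19), and between -0.08 and 0.06 for Bcl2l1, Bcl2l11 and Bmf.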

How the data were processed

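RNA from 41 tumors was sequenced as paired reads (TruSeq mRNA libraries). Per the labels and the study's methods, the authors aligned reads to mm10 with STAR (2.7.6a), quantified genes with Salmon (1.4.0), with SAMtools and Picard (2.22.4) also in the submitters' processing notes, and divided each tumor by its upper quartile. The deposited values are this upper-quartile-normalized signal (1000 at the upper quartile of nonzero genes in each tumor). The annotation behind the genes is not given in the sources used here. Whole reads could not be recovered, as 77.9% to 80.5% of nonzero values lay within 0.1 read of a whole number.

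From the values, log2(value + 1) was tested with limma (3.58.1, R 4.3.3) over genes with a mean of at least 10, with Benjamini-Hochberg adjustment and a threshold of 0.05, and fold changes refer to that scale, which understates low genes. Genotype came from the labels, and the claudin-low class from the study and, for PLK2null-732 and PLK2null-733, from the grouping used here. Lengths and positions came from GENCODE vM21 on GRCm38 (95.0% of symbols matched once), and start windows from RefSeq. The trend over length and GC content was removed per tumor by lowess for the 96.5% of tested genes with a length. TMM factors were computed from the values by the trimmed mean of M-values. Fits were tested on simulated data. The members and gene lists were chosen with earlier results of these data known. Named genes were the 10 members, from the pathway lists at most the 5 called genes with the largest change in each direction, and the 3 genes most like each member. One result under this rule is not reported here. Alternatives covered the pseudocount, the filter, the scaling, left-out tumors and the choice of Plk2-null tumors. Per-transcript values were not analysed here.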

Additional observations from a re-analysis of the deposited data

Results flagged for a closer look

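The 10 members gave 20 sets of values that were examined for a tumor far from the rest of its set, each member in the 4 claudin-low tumors and in the 7 Plk2-null tumors PLK2null-7747 to PLK2null-7764. Of these, 4 held one, where chance alone flags about 1 in 20. In the 4 claudin-low tumors T11 was far from the other 3 for Bcl2l1 (2730 against 992 to 1271), Bad (993 against 548 to 597) and Bak1 (2251 against 3261 to 3363). T11 is also the single p53-/- tumor of the 4, so genotype and tumor cannot be told apart there. Among those 7 tumors PLK2null-7763 had Bik at 474, with the other 6 at 53.2 to 219, and its summed endothelial level was 78025.

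For 2 members T11 stood apart from the other p53-/- tumors in another way than the 3 claudin-low Plk2-null tumors did from theirs, in a limma fit with an interaction term. T11 is the lone claudin-low p53-/- tumor and is assumed to vary like the other tumors, so the test compares 1 tumor and does not show a difference between genotypes. For Bik the effect was 2.96 in Plk2-null tumors and -3.36 in T11, a difference of 6.32 with an SE of 1.19 (limma, adjusted p = 0.000463). For Bcl2 the effects were 0.50 and -1.89, a difference of 2.39 with an SE of 0.76 (limma, adjusted p = 0.0362). Over all genes 9.97% of 17208 passed this test, which was chosen after seeing the data. Bmf, also lowest in T11 at 225, differed by 2.26 and did not pass (limma, adjusted p = 0.21).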

How the results depend on the processing

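No paired analysis was possible because the labels give no replicate numbers that the groups share. Between genotypes, the number of members called was 2 in place of 1 with TMM scaling, quantile scaling and an intensity trend (Bad and Bcl2l1) and without the 4 claudin-low tumors (Bad and Bik), and Bad was called in all 10 alternatives, with adjusted p in limma from 6.63e-11 to 0.00294. With the 7 Plk2-null tumors PLK2null-7747 to PLK2null-7764 alone, 2942 genes were called in place of 6802. Signs turned, in no case past the threshold, with the length and GC trend removed for Bcl2 (-0.16), Mcl1 (-0.11), Bcl2l2 (-0.0616) and Bmf (-0.0522), with TMM scaling for Mcl1 (-0.0624), Bcl2l2 (-0.0826), Bid (-0.0112) and Bmf (-0.0091), with quantile scaling for Bcl2l2 (-0.0185), with those 7 tumors alone for Mcl1 (-0.0822), and without the claudin-low tumors for Bmf (-0.0461). In the claudin-low comparison 2 members were called in place of 4 on adding T11 with a genotype term, where Bcl2 turned to -0.11, and leaving out 1 claudin-low tumor gave a count of 2 in each of the 3 cases, from 4527 to 4629 genes over the table. Bik was called in 11 of 12 alternatives. Pairs of members with r of at least 0.5 in size numbered 11 by Pearson's r and 10 by Spearman's rho within the 25 other Plk2-null tumors, and 0 by either over 41 tumors. The cause was not tested, except that fewer tumors entered the fits of those 7 tumors and of left-out tumors. Leaving out 1 p53-/- tumor (p53null-7435 or p53null-2396R) or PLK2null-7763, and removing the length and GC trend, were chosen after seeing the data. All member values lay above that of 3 fragments. The claudin-low group held 3 tumors.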
